A study of Homo sapiens with 5 samples.

Results

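The NDRG (N-myc downstream regulated gene) family has 4 human members, NDRG1, NDRG2, NDRG3 and NDRG4, and their levels are described here in MDA-MB-231 cells kept at low or ambient oxygen. The 4 rows were taken by gene symbol from deposited tables of 26475 gene rows, and all 4 passed the filter on low values (1 CPM, counts scaled to library depth, reached in any library), which left 13940 genes. The family was picked with results of these libraries known, NDRG1 being among the genes that differed most, so its levels are a description and carry no test. NDRG4 passed that filter through 4 of the 5 libraries and fell below it in the remaining one.

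NDRG proteins share the fold of the alpha/beta hydrolases but are thought to lack hydrolase activity. NDRG1 is a classical hypoxia-responsive gene that is also raised by iron chelation and cell stress; its protein is phosphorylated by SGK1 and GSK3B, takes part in vesicle recycling of E-cadherin, and is needed for myelin upkeep, since its loss causes a hereditary neuropathy. NDRG1 has been described both as a restraint on metastasis and as a marker of aggressive breast cancer. NDRG2 is a tumor suppressor candidate that is abundant in astrocytes, the NDRG3 protein is degraded through prolyl hydroxylation by EGLN1 and held stable by lactate in low oxygen, and NDRG4 is best known from heart and brain and from promoter methylation in colorectal cancer.

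MDA-MB-231 is an established human line of triple-negative breast cancer. The series compares short with long hypoxia and asks about the return to ambient oxygen, with 1 RNA library per condition. The reoxygenated cells spent 10 days at 1% O2 and then 10 days at 20% O2; the others were grown at 1% O2 for 10 days, at 20% O2 for 10 days, at 1% O2 for 1 day or at 20% O2 for 1 day. No library of cells kept at 20% O2 for as long as the reoxygenated cells was in culture was analysed here. With 1 library per condition each difference compares a pair of libraries and has no replicate check, and whether a library came from 1 culture or from pooled cultures is not given in the sources used here.

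Library totals ran from 7719797 to 12544953 estimated counts, the reoxygenated library being the shallowest. Levels are given as CPM scaled by TMM, a between-library factor that ran from 0.965 to 1.067. Every 95% interval covers counting error only, and an absence of counts would allow 3 counts, or 0.239 to 0.389 CPM before scaling. VIM, CD44 and AXL, markers of a mesenchymal breast line, had at least 5818 counts in every library but were lower at 1% than at 20% O2 on day 10, by log2 differences of -0.68, -1.08 and -0.43, and the epithelial gene EPCAM was higher there by 0.94. The estrogen and progesterone receptor genes ESR1 and PGR had at most 4. SPARC, another mesenchymal marker, had at most 15 counts, and the luminal keratins KRT8 and KRT18 had at least 2644 in every library. Unlike EPCAM, both keratins were lower at 1% than at 20% O2 on day 10, by log2 differences of -0.87 and -0.37. The luminal genes GATA3 and ERBB2 were also lower there, by -0.62 and -0.19. The part of these marker differences in the results was not tested. The 4 markers of other cell types (PTPRC of leukocytes, PECAM1 of endothelium, ALB of liver and COL1A1 of fibroblasts) summed to 11.1 CPM in reoxygenated cells, 17.8 and 9.46 CPM on day 10 at 1% and 20% O2, and 7.41 and 5.01 CPM on day 1 at 1% and 20% O2; COL1A1 led each sum, ALB was at 0 in all but the 1% O2 day 10 library, and their part in the results was not tested.

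The members lie on 4 chromosomes. On GRCh38, in RefSeq's annotation, NDRG1 occupies chr8:133237175-133297252 on the minus strand, NDRG2 chr14:21016763-21070872 on the minus strand, NDRG3 chr20:36651771-36746090 on the minus strand and NDRG4 chr16:58463715-58515387 on the plus strand. Of the 50-base words in the members' GENCODE 29 transcripts, none was shared between members. Transcripts were compared in the sense direction only, so overlap with a gene on the opposite strand was not looked for. In that direction no word of NDRG1 (0 of 10385) or NDRG4 (0 of 11113) occurred in any other gene, against 0.871% of NDRG2 words and 2.31% of NDRG3 words.

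NDRG1 had by far the widest span of the members. Its count was 504 in the reoxygenated library, 40452 at 1% O2 on day 10, 1014 at 20% O2 on day 10, 6003 at 1% O2 on day 1 and 668 at 20% O2 on day 1. Scaled for depth, these were 63.4 CPM in reoxygenated cells, 3877 CPM at 1% O2 on day 10, 82.7 CPM at 20% O2 on day 10, 556 CPM at 1% O2 on day 1 and 64.3 CPM at 20% O2 on day 1. Both 1% O2 libraries stood above all 3 libraries harvested at 20% O2, and the day 10 library stood far above the day 1 library. In RNA from whole cultures, more NDRG1 RNA per cell and more cells with NDRG1 RNA cannot be told apart.

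In the chronic library NDRG1 was among the most abundant transcripts of the cell. It took 0.414% of all counts at 1% O2 on day 10 (exact binomial 95% interval 0.410 to 0.418%), against 0.00808% at 20% O2 on day 10. By CPM it ranked 4 among all rows at 1% O2 on day 10, behind the elongation factor EEF1A1 and the ribosomal RNA rows RNA18S5 and RNA28S5 and ahead of the collagenase MMP1 and the actin gene ACTB, against a rank of 3166 at 20% O2 on day 10. At day 1 the rank was 230 at 1% O2 and 3952 at 20% O2. In reoxygenated cells it was 3936, close to that at 20% O2 on day 1.

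**Figure D1:**
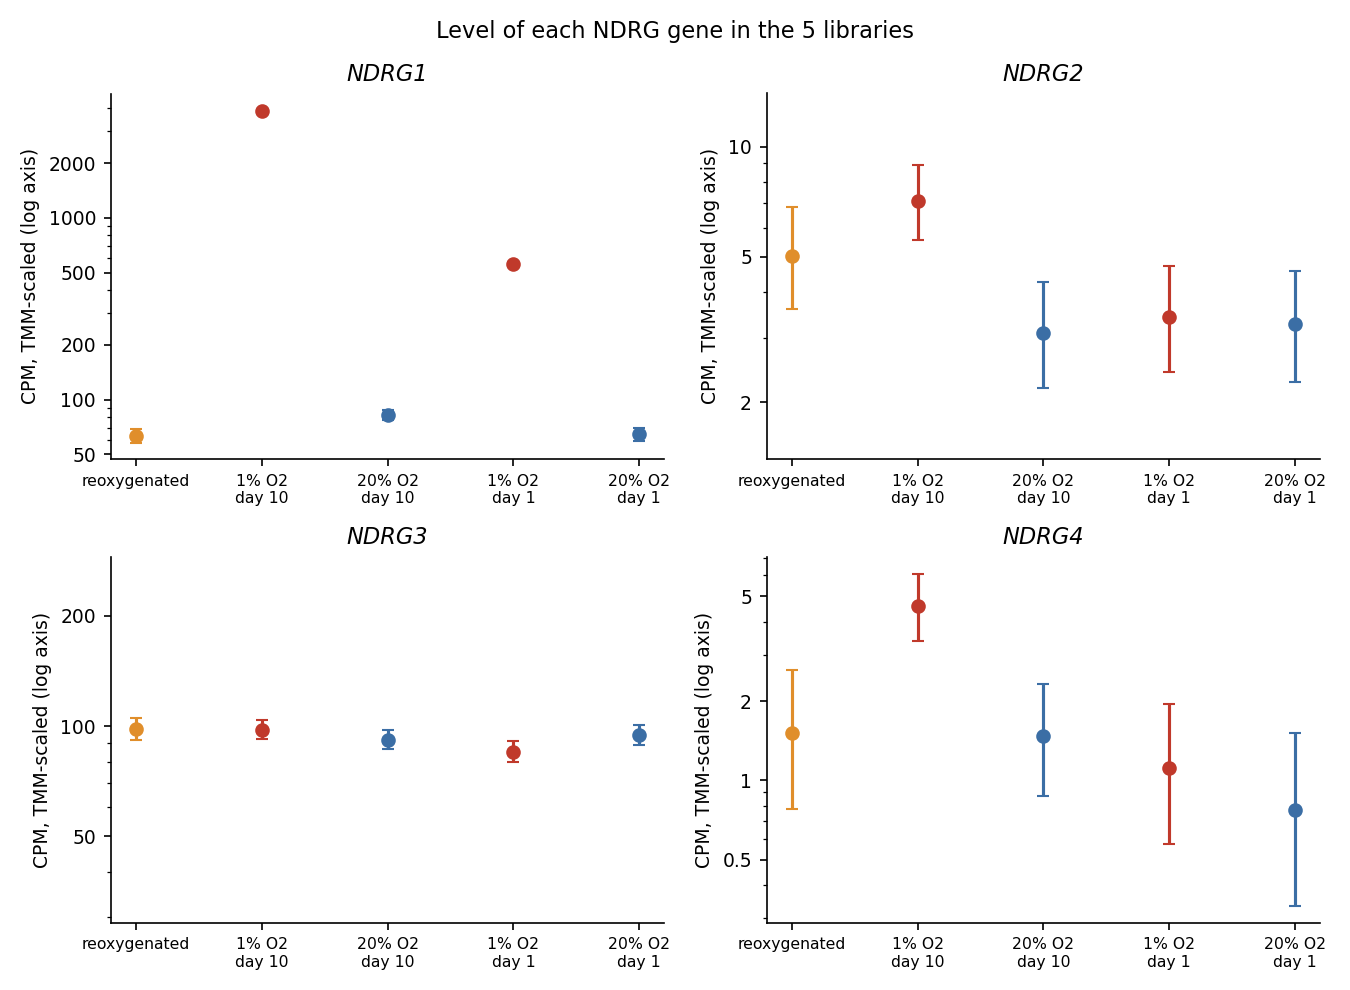
Level of each NDRG gene in each library, in TMM-scaled CPM on log axes that differ between panels; points are single libraries and bars are exact 95% Poisson intervals of the count. NDRG1 spans 63.4 to 3877 CPM, while NDRG3 stays between 85.1 and 98.3 CPM.

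The order of NDRG1 levels was 1% O2 day 10, 1% O2 day 1, 20% O2 day 10, 20% O2 day 1 and reoxygenated. The last pair could not be told apart, with a log2 ratio of 0.02 for 20% O2 day 1 over reoxygenated (95% interval -0.15 to 0.19), and each other neighbouring pair was apart by more than counting error. The highest level was 61.2 times the lowest.

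Differences were then read on the log2 CPM scale, computed with a prior count of 2 added before the logarithm, and a difference of at least 1 (2-fold) was called past the size rule. After 1 day, NDRG1 was 3.11 higher at 1% O2 than at 20% O2 (95% interval 3.00 to 3.23; 8.62-fold), and it ranked 6 among 13940 genes. It was the 1 member of 4 past the rule there, where 2.12% of all genes were past it upward and 0.839% downward. After 10 days, NDRG1 was 5.55 higher (5.46 to 5.64; 46.8-fold), ranking 2 of 13940. NDRG2 and NDRG4 were past the rule in the same direction there, which makes 3 of 4 members, against 14.4% of all genes upward and 7.04% downward. These contrasts were in view when the family was picked, so nothing is read from its counts.

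Between the hypoxic libraries, NDRG1 was 2.80 higher at 1% O2 on day 10 than at 1% O2 on day 1 (2.76 to 2.84; 6.97-fold). Many genes moved further than NDRG1 between those days, and its rank was 198. NDRG1, NDRG2 and NDRG4 were past the size rule upward in this comparison and none downward, against 14.2% of all genes upward and 6.56% downward. Culture time at 20% O2 gave a smaller difference for NDRG1, 0.36 for day 10 over day 1 (0.22 to 0.51), and no member was past the rule, against 3.06% of genes upward and 1.31% downward. Subtracting the acute from the chronic difference left 2.44 (2.29 to 2.58) for NDRG1, which ranked 263. That left NDRG1, NDRG2 and NDRG4 past the rule upward and none downward, against 12.5% of genes upward and 6.18% downward.

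Reoxygenation took NDRG1 back to the ambient range. Reoxygenated cells held 61.0-fold less NDRG1 RNA than cells at 1% O2 on day 10, a log2 difference of -5.93 (-6.06 to -5.81), and a single gene had a lower difference. NDRG1 and NDRG4 were past the size rule downward in this comparison, against 11.2% of all genes. Against cells at 20% O2 on day 10, the difference of reoxygenated cells was -0.38 for NDRG1 (-0.54 to -0.23). The NDRG1 level of reoxygenated cells thus lay slightly below that of day 10 cells never exposed to 1% O2, by more than counting error. No member was past the rule in that comparison, in which 3.4% of genes were past it upward and 1.41% downward.

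**Figure D2:**
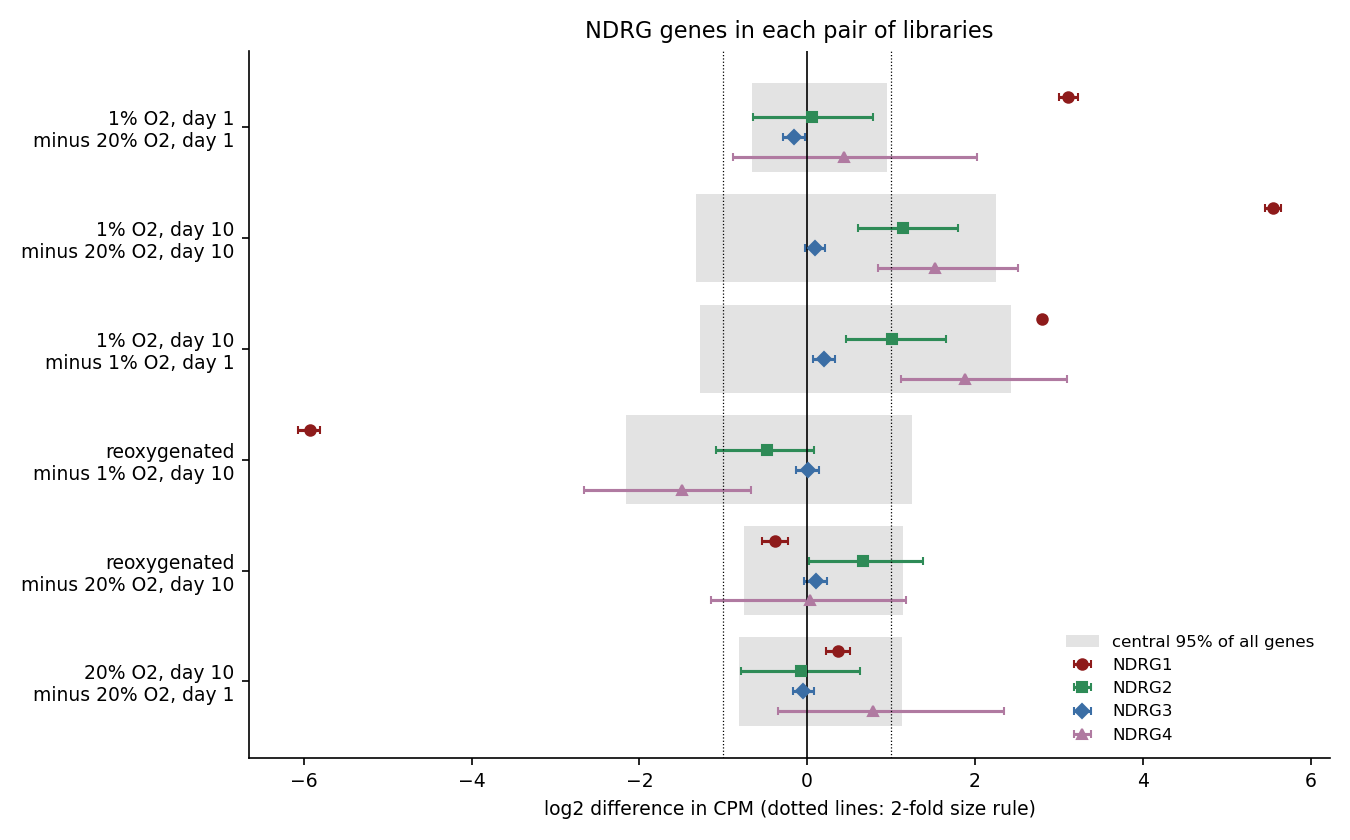
Log2 difference of each NDRG gene in 6 pairwise comparisons, with 95% counting intervals as bars; grey bars span the central 95% of all 13940 genes. NDRG1 lies at 5.55 for 1% O2 over 20% O2 on day 10 and at -5.93 for reoxygenated cells over 1% O2 on day 10, and NDRG3 lies between -0.15 and 0.20 throughout.

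NDRG3, whose protein is under oxygen-dependent control, hardly varied at the RNA level. Its counts were 782 in the reoxygenated library, 1021 at 1% O2 on day 10, 1125 at 20% O2 on day 10, 919 at 1% O2 on day 1 and 984 at 20% O2 on day 1. The scaled levels were 98.3 CPM in reoxygenated cells, 97.8 and 91.7 CPM on day 10 at 1% and 20% O2, and 85.1 and 94.7 CPM on day 1 at 1% and 20% O2. No neighbouring pair in their order was apart by more than counting error, and the highest level was 1.15 times the lowest.

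At day 1 the NDRG3 difference of 1% over 20% O2 was -0.15 (-0.29 to -0.02), and at day 10 it was 0.09 (-0.03 to 0.22). Reoxygenated cells differed by 0.01 from cells at 1% O2 on day 10 (-0.13 to 0.14). None of these intervals reaches the size rule, and the spread between cultures was not measured. NDRG3 protein was not measured in these libraries.

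NDRG2 was a low transcript that was higher in the chronic library. It had 40 counts in reoxygenated cells, 74 at 1% O2 on day 10, 38 at 20% O2 on day 10, 37 at 1% O2 on day 1 and 34 at 20% O2 on day 1, which is 5.03, 7.09, 3.10, 3.43 and 3.27 CPM in the same order of libraries. The 1% O2 day 10 library was the highest and no neighbouring pair in the order of levels was apart by more than counting error. After 10 days the log2 difference of 1% over 20% O2 was 1.15 (0.61 to 1.80; 2.21-fold), after 1 day 0.06 (-0.65 to 0.78), and between the hypoxic days 1.01 (0.46 to 1.66). In the authors' normalized table, as log2(value + 1), the first and last of these were 0.96 and 0.87, short of the size rule. Reoxygenated cells differed by -0.48 from 1% O2 on day 10 (-1.09 to 0.08) and by 0.67 from 20% O2 on day 10 (0.02 to 1.38), so their level lay between those of the day 10 libraries.

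The NDRG2 span holds other genes. ARHGEF40, a guanine nucleotide exchange factor gene on the opposite strand that lies across it, had 142 counts in reoxygenated cells, 217 and 163 on day 10 at 1% and 20% O2, and 110 and 136 on day 1 at 1% and 20% O2. Its day 10 difference was 0.64 (0.35 to 0.95), in the same direction as that of NDRG2. The strand setting of the counting is not given in the sources used here, so reads of NDRG2 and ARHGEF40 may not have been kept apart where their exons meet. TPPP2, RNASE13, RNASE7 and RNASE8, which also overlap the span, had at most 1 count in any library.

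NDRG4 was the scarcest member. Its counts were 12 in reoxygenated cells, 48 at 1% O2 on day 10, 18 at 20% O2 on day 10, 12 at 1% O2 on day 1 and 8 at 20% O2 on day 1, or 1.51, 4.60, 1.47, 1.11 and 0.770 CPM in the same order of libraries. Only the 1% O2 day 10 level stood apart from its nearest neighbour, the reoxygenated level. The difference of 1% over 20% O2 was 1.53 on day 10 (0.84 to 2.52; 2.89-fold) and 0.44 on day 1 (-0.88 to 2.03). It was 1.88 between the hypoxic days (1.11 to 3.10) and -1.49 for reoxygenated cells over 1% O2 on day 10 (-2.66 to -0.67). Reoxygenated cells differed by 0.04 from cells at 20% O2 on day 10 (-1.15 to 1.17), an interval wide enough to hold a 2-fold change either way. The excess of chronic over acute difference was 1.09 for NDRG4 (-0.39 to 2.63) and 1.08 for NDRG2 (0.25 to 2.01), and in the authors' normalized table both were 0.92, short of the size rule.

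The promoters of NDRG2 and NDRG4, the members matched in RefSeq's promoter table, were read for the core of the hypoxia response element, the letters ACGTG or GCGTG on either strand; ACGTG is also part of the E-box CACGTG. The windows are RefSeq's, on GRCh38.p14, and run from 250 bases before to 50 bases after an annotated start. Of 35116 such windows, 48.4% hold at least 1 match. The promoters of NDRG1 and NDRG3 were not analysed here. NDRG2 has 5 windows, 3 of them with a match, but a pair of these overlap and hold the same site; NDRG4 has 4, of which 1 has matches. The window of each gene shown is one with a match, printed 5′ to 3′ on the gene's strand, with matches in capitals; the NDRG2 window is chr14:21025056-21025355 (minus strand) and the NDRG4 window is chr16:58463465-58463764 (plus strand).
NDRG2: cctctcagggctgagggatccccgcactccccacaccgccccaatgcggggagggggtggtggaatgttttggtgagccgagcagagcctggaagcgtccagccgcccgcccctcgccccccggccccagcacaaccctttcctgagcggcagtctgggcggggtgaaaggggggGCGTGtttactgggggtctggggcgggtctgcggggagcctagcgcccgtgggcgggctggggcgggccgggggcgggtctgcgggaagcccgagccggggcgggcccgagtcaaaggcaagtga
NDRG4: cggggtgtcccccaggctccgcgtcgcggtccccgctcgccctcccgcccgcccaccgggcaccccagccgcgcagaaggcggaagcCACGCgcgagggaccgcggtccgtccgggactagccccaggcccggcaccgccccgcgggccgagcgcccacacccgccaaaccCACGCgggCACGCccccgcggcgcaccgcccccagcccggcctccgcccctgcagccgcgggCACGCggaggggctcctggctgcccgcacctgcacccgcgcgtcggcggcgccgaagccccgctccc
The NDRG2 window holds 1 match and is 73.3% G or C. The NDRG4 window holds 4 matches, all read on the opposite strand as GCGTG, and 4.40% of windows hold as many; at 83% G or C it is also richer in these letters than the median window at 58.7%. A match describes the letters and is not evidence of binding.

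The composition of family RNA turned over with oxygen. NDRG1 made up 37.7% of family counts in reoxygenated cells (exact binomial 95% interval 35.1 to 40.3%). On day 10 it made up 97.3% at 1% O2 (97.1 to 97.4%) and 46.2% at 20% O2 (44.1 to 48.3%). On day 1 it made up 86.1% at 1% O2 (85.3 to 86.9%) and 39.4% at 20% O2 (37.1 to 41.8%). NDRG3 was the most counted member in every library harvested at 20% O2, with 58.4% of family counts in reoxygenated cells, 51.3% at 20% O2 on day 10 and 58.1% at 20% O2 on day 1, and it held 2.45% at 1% O2 on day 10 and 13.2% at 1% O2 on day 1.

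**Figure D3:**
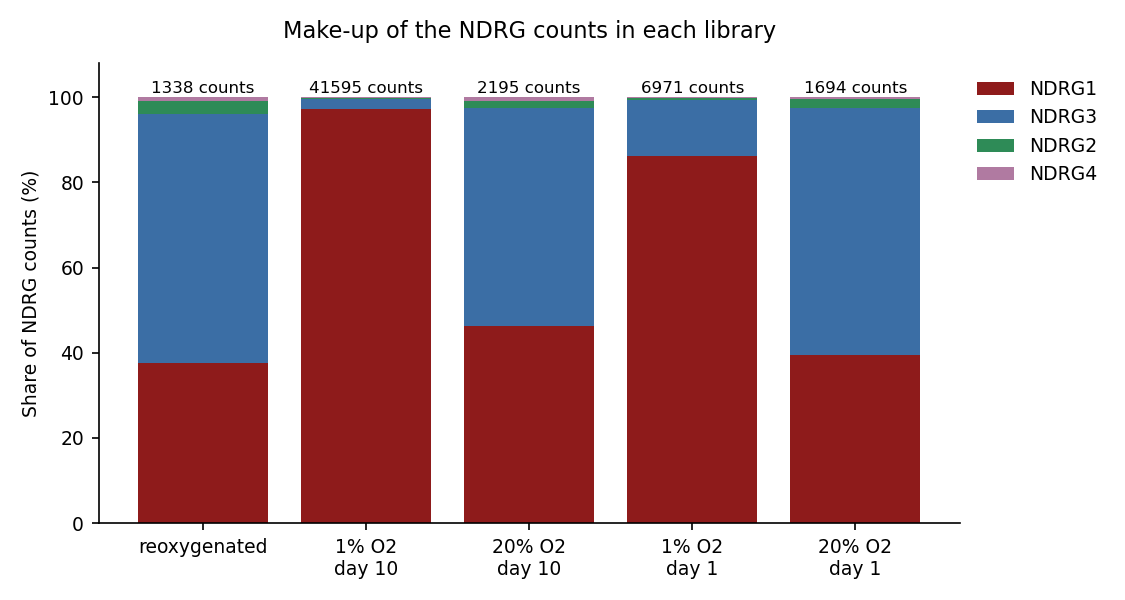
Share of the summed NDRG counts taken by each member in each library, in percent, as stacked bars. NDRG1 takes 97.3% at 1% O2 on day 10 and 37.7% in reoxygenated cells, where NDRG3 takes 58.4%.

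The sum of the other members varied far less than NDRG1, at 105 CPM in reoxygenated cells, 110 and 96.3 CPM on day 10 at 1% and 20% O2, and 89.7 and 98.8 CPM on day 1 at 1% and 20% O2. The family as a whole summed to 168 CPM in reoxygenated cells, 3986 and 179 CPM on day 10 at 1% and 20% O2, and 646 and 163 CPM on day 1 at 1% and 20% O2. Per kilobase of each gene's longest annotated transcript, NDRG1 stood at 0.511 times the NDRG3 level in reoxygenated cells. On day 10 the ratio was 31.4 at 1% O2 and 0.715 at 20% O2, and on day 1 it was 5.18 at 1% O2 and 0.538 at 20% O2. The order of NDRG1 and NDRG3 thus differed between the libraries at 1% O2 and those harvested at 20% O2, per length as by counts. NDRG2 stood above NDRG4 per kilobase in every library, by 1.94 times at 1% O2 on day 10 to 5.35 times at 20% O2 on day 1.

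The genes whose pattern over the 5 libraries lay nearest to each member were found by the root-mean-square distance between log2 CPM profiles centred on their mean, among genes that reached 5 CPM in any library. Nearest to NDRG1 were LOX, a secreted collagen cross-linking oxidase, at a distance of 0.75, and ANGPTL4, a lipoprotein lipase inhibitor, at 0.85. They were followed by the prolyl hydroxylase gene EGLN3 at 0.86, C10orf10 at 0.87 and MIR210HG, the host transcript of a hypoxia-induced microRNA, at 0.93. MIR210HG reached 5 CPM only at 1% O2 on day 10, so it entered the search through the library where it is high. LOX had 32.9 CPM in reoxygenated cells, 589.6 and 38.7 CPM on day 10 at 1% and 20% O2, and 125 and 36.1 CPM on day 1 at 1% and 20% O2. LOX had the same order of libraries as NDRG1 over a narrower span. ANGPTL4 stayed higher in reoxygenated cells, at 10.2 CPM, than at 20% O2 on day 10, at 5.55 CPM, a log2 difference of 0.85 where NDRG1 had -0.38. Every other gene compared lay further from NDRG1 than these 5.

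NDRG2 and NDRG4 had much nearer neighbours, but the counting intervals of their own levels are far wider than these distances, so counting error alone could reorder the names. Nearest to NDRG2 were PLAG1 at 0.03, the fructosamine kinase FN3K at 0.03, the reticular hexose-6-phosphate dehydrogenase H6PD at 0.03, the BBSome gene BBS9 at 0.04 and TTC17 at 0.04. Their day 10 differences of 1% over 20% O2 ran from 1.03 for TTC17 to 1.14 for H6PD, and all 5 lay between the day 10 libraries after reoxygenation. Nearest to NDRG4 were the semaphorin SEMA6C at 0.05, PAIP2B, which restrains the poly(A)-binding protein, at 0.07, CEACAM19 at 0.08, the EGF receptor ligand TGFA at 0.08 and the kinesin KIFC2 at 0.08. TGFA, the best counted of these, had 62.7 CPM in reoxygenated cells, 161 and 54.4 CPM on day 10 at 1% and 20% O2, and 44.0 and 29.7 CPM on day 1 at 1% and 20% O2. By Pearson's correlation, 1 of the 5 nearest genes was shared with this measure for each of the 3 members (LOX, TTC17 and PAIP2B), so these names depend on the measure. FN3K, SEMA6C and CEACAM19 reached 5 CPM only at 1% O2 on day 10, so they entered the search through the library where they are high. NDRG3 varied too little for such a search.

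**Figure D4:**
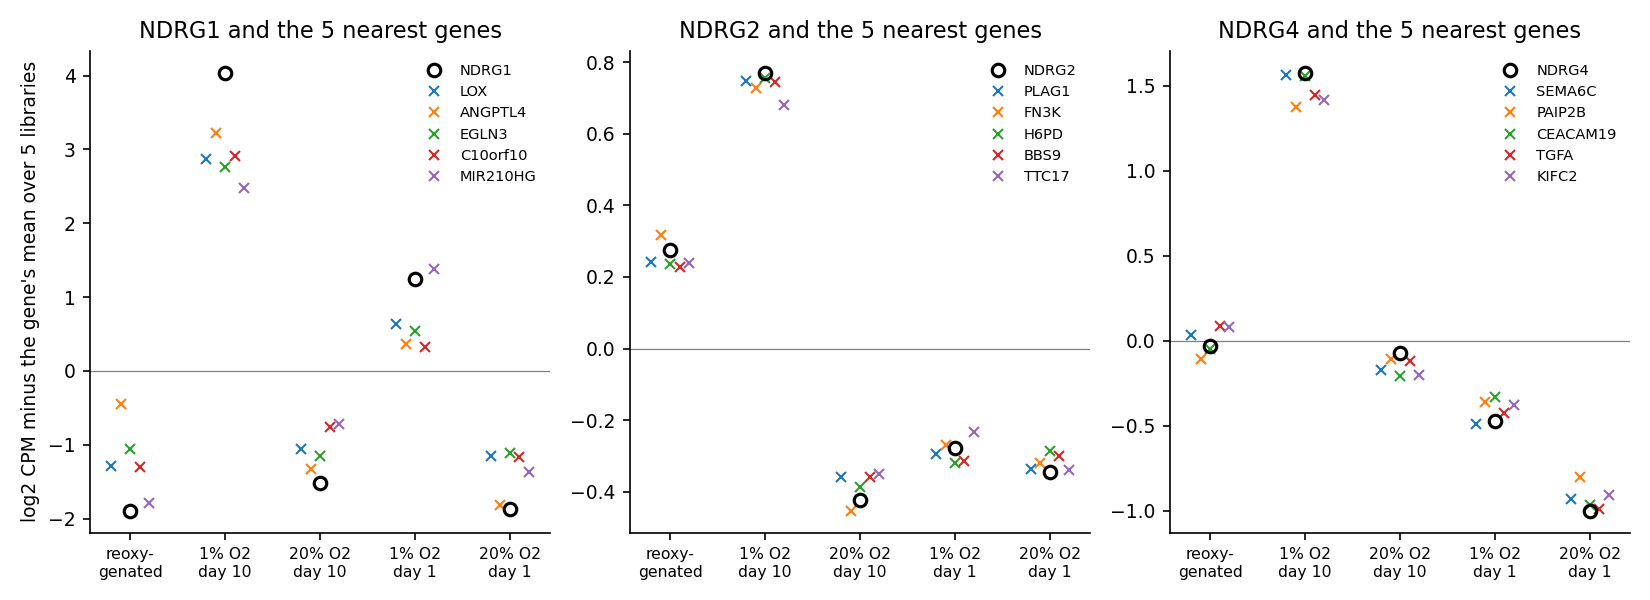
Centred log2 CPM of NDRG1, NDRG2 and NDRG4 and of the 5 genes nearest to each over the 5 libraries; each point is 1 library. The genes nearest to NDRG1, led by LOX at 0.75, are likewise highest at 1% O2 on day 10, over a narrower span. Those nearest to NDRG2 have root-mean-square distances of 0.03 to 0.04. The distances include the prior count of 2, which the plotted points leave out.

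Genes linked to NDRG biology were then read as lists. The lists mix factors that raise NDRG1, its repressor MYC and partners of NDRG proteins, so no shared direction is read from their counts. Of 42 such genes in 7 lists, 40 were expressed; the neuroblastoma gene MYCN, from which the family takes its name, had 0 counts in every library and SGK2 at most 5. On day 1, 2 listed genes were past the size rule upward (EGLN3 and KDM3A) and 2 downward (HIF1A and CDH1), against 2.12% and 0.839% of all genes. CDH1 had 0 counts at 1% O2 against 8 at 20% O2 on day 1, so the size of its difference rests on the prior count. The list median was 0.03 against 0.00 over all genes. On day 10, 4 were past it upward (EPAS1, EGLN3, KDM3A and SLC16A1) and 3 downward (HIF1A, SGK3 and CD82), against 14.4% and 7.04% of all genes. The median was then -0.19 against 0.02 over all genes. In reoxygenated over 1% O2 day 10 cells, 3 were past it upward (HIF1A, SGK3 and CD82) and 4 downward (EGLN3, KDM3A, ATF3 and SLC16A1). Among all genes, 5.6% were past it upward there and 11.2% downward.

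Within the oxygen sensing list, the HIF-alpha subunits went opposite ways on day 10. HIF1A, the alpha subunit of the factor that drives NDRG1 in hypoxia, had 626 CPM in reoxygenated cells, 78.6 and 467 CPM on day 10 at 1% and 20% O2, and 190.5 and 396 CPM on day 1 at 1% and 20% O2. HIF1A RNA was lowest where NDRG1 RNA was highest, and HIF-1 alpha protein was not measured in these libraries. EPAS1, which encodes the HIF-2 alpha subunit, had 166 CPM in reoxygenated cells, 293 and 132 CPM on day 10 at 1% and 20% O2, and 50.9 and 53.5 CPM on day 1 at 1% and 20% O2. EGLN1, the hydroxylase reported to act on NDRG3 protein, differed by 0.86 on day 1 and 0.32 on day 10, EGLN3 by 1.60 and 3.86, and the histone demethylase gene KDM3A by 1.22 and 1.31.

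Both 1% O2 libraries were also set against both 20% O2 libraries of day 1 and day 10 in edgeR's quasi-likelihood test, which held terms for day and oxygen. Among the 39 listed genes tested, EGLN3 rose by a log2 2.84 (SE 0.42; Benjamini-Hochberg adjusted p = 0.00014) and KDM3A by 1.28 (SE 0.27; adjusted p = 0.00858). HIF1A fell by 1.79 in the same edgeR test (SE 0.33; adjusted p = 0.00216). Over all 13011 genes tested, 0.899% rose and 0.0999% fell. The lists were chosen with earlier results of these data known, so these p-values are a description and not an independent test. Over the same 4 libraries with no day term, edgeR gave the 3 genes an adjusted p of 0.772, and no listed gene passed. With 1 library left out, the day term had to be dropped as well, and one oxygen level was left with a single library that is assumed to vary like the others, so these fits change more than the library. Without the 20% O2 library of either day, that edgeR fit gave the 3 genes adjusted p of 1.00. Without the 1% O2 day 10 library it gave EGLN3 an adjusted p of 0.115, KDM3A 0.0264 and HIF1A 0.0304. Without the 1% O2 day 1 library, 9 listed genes rose and 7 fell, among them the same 3 genes in the same directions. The labels do not say that these libraries are separate cultures. With 1 library per oxygen level and day, the fit with both terms had 1 residual degree of freedom. That residual holds how far the oxygen difference changed between the days, and the variance was drawn largely from other genes. These p-values therefore do not measure a spread between cultures.

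SGK1 and GSK3B, which phosphorylate NDRG1, went opposite ways on day 10, while most of the list of kinases and their activators was lower. Of its 9 expressed genes, 2 were higher at 1% than at 20% O2 on day 10. The list median there was -0.49, against 0.02 over all genes. On day 1, 6 of the 9 were higher, with a median of 0.04 against 0.00 over all genes. SGK1 differed by 0.06 on day 1 (-0.16 to 0.28) and by -0.83 on day 10 (-1.09 to -0.58), whereas GSK3B was higher at 1% O2 on both days, by 0.22 (0.09 to 0.34) and 0.43 (0.32 to 0.55), short of the size rule. GSK3B was also lower in reoxygenated cells than at 1% O2 on day 10, with a difference of -0.40 (-0.52 to -0.27). RICTOR, a subunit of the complex that activates SGK1, differed by 0.60 on day 10, and MAPKAP1 of the same complex by -0.60. SGK3 had 0 counts at 1% O2 on day 10 against 124 at 20% O2 on day 10, but together with the read-through row C8orf44-SGK3 it had 48 against 163 counts, so its reads may have been split between these rows. MYC, a repressor of NDRG1, differed by 0.03 on day 1 (-0.12 to 0.17) and by -0.26 on day 10 (-0.42 to -0.09).

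Of the genes linked to NDRG1 in adhesion and trafficking, CDH1, the E-cadherin gene, had at most 13 counts in any library. CD82, a tetraspanin that restrains metastasis, differed by 0.36 on day 1 and -1.04 on day 10. In the lactate arm linked to NDRG3, LDHA, which makes lactate, differed by 0.97 on day 1 and 0.62 on day 10. The lactate exporter SLC16A3 differed by 0.70 and 0.58. SLC16A1 had 72 counts at 1% O2 on day 10 and 34 at 20% O2 on day 10. PPP2CA, the phosphatase subunit linked to NDRG2, differed by -0.89 on day 10.

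**Figure D5:**
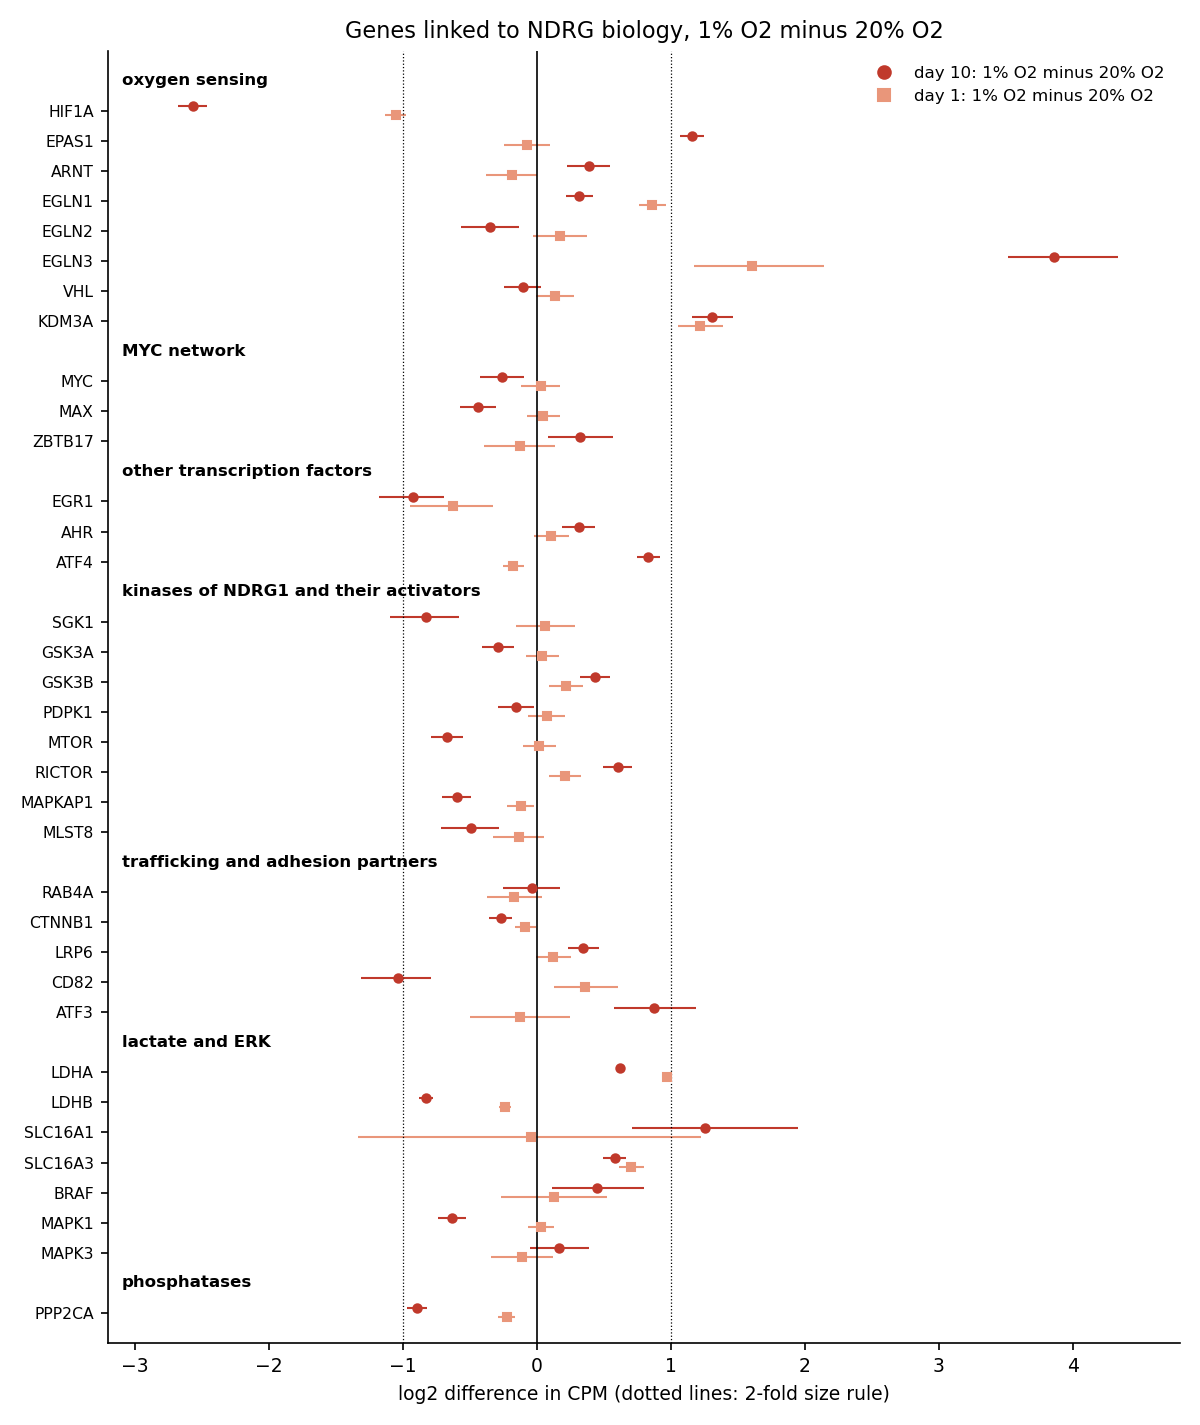
Log2 difference of 1% over 20% O2 on day 10 and on day 1 for 35 of the 38 listed genes with a count in every library, grouped by list. EGLN3 lies at 3.86 on day 10 and 1.60 on day 1, and HIF1A at -2.57 and -1.05.

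Among the chromosomal neighbours of the members, ST3GAL1 beside NDRG1 was higher at 1% O2 on day 10. Of the 16 nearest protein-coding genes that do not overlap a member, 2 on each side, 11 were expressed. None was past the size rule on day 1. On day 10 the rule was passed upward by TG and ST3GAL1, both neighbours of NDRG1, and by no neighbour of NDRG2, NDRG3 or NDRG4. That is 2 of 11, near the 14.4% of all genes past it upward. TG lies 102275 bases from NDRG1 and ST3GAL1 157595 bases. WISP1, which is nearer to NDRG1 than TG on the same side, had at most 3 counts in any library. ST3GAL1, a sialyltransferase gene, had 384 counts in reoxygenated cells, 2010 and 576 on day 10 at 1% and 20% O2, and 739 and 523 on day 1 at 1% and 20% O2. Its day 10 difference was 2.03 (1.90 to 2.17), its day 1 difference 0.44 (0.28 to 0.61), and reoxygenated cells differed by -1.99 from 1% O2 on day 10. TG, the thyroglobulin gene, had 16 counts at 1% O2 on day 10 against 0 at 20% O2 on day 10 and at most 1 in each other library, so it was kept as expressed through the library where it is high. The next gene beyond ST3GAL1, the zinc finger gene ZFAT, differed by 0.22 on day 10 (-0.12 to 0.57).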

How the data were processed

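RNA of MDA-MB-231 cells was sequenced as 1 library per condition from a KAPA mRNA kit, per the labels' protocols. The submitters' processing notes name Bowtie2 2.1.0, RSEM 1.2.15, edgeR and the build hg38, while the annotation and strand setting are not stated there or in the labels. The authors deposited expected counts per gene symbol, of which 3.58 to 4.09% per library were not whole; they were rounded here. The authors also deposited a normalized signal on a TMM-scaled CPM scale and used here as log2(value + 1) for comparison. A spreadsheet had made dates of 28 gene symbols. Reads carried no molecular identifiers that the labels mention, so copies count as reads.

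TMM factors and log2 CPM (prior count 2) were computed with edgeR 4.0.16 in R 4.3.3 for the 13940 genes that reached 1 CPM in any library. Intervals are exact: Poisson for levels, binomial for shares, Clopper-Pearson for count ratios (scipy 1.17.1). The size rule was a log2 difference of 1. The oxygen term was fitted with edgeR's quasi-likelihood test over 4 libraries (13011 genes, library sizes recomputed after filtering) with Benjamini-Hochberg adjustment at 0.05; DESeq2 1.42.0 and limma 3.58.1 (voom) were alternatives. The scripts were tested on simulated data. Members and gene lists were chosen with earlier results of these data known. Named genes were the members, the listed genes and the 5 genes nearest in pattern to each member that spans at least 1. The 2 nearest protein-coding genes on each side without overlap, and the genes that overlap NDRG2, were also named. The markers and the most abundant transcripts are named as checks. Other settings tried were library totals, DESeq2 size factors, other prior counts and filters, and leaving out each library. Single values of a few listed genes are not reported here.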

Additional observations from a re-analysis of the deposited data

Results flagged for a closer look

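Among the listed genes, CD82 and ATF4 differed in opposite directions on day 1 and day 10 between 1% and 20% O2, with both counting intervals away from 0; with 1 library per condition the difference between the days was not tested, and its intervals cover counting error only. CD82 differed by 0.36 on day 1 and -1.04 on day 10 and ATF4, a stress-response factor that raises NDRG1, by -0.18 on day 1 and 0.83 on day 10. ATF4 had 272 CPM on day 1 and 150 CPM on day 10 at 20% O2, a log2 difference of -0.86. At 1% O2 it had 241 CPM on day 1 and 266 CPM on day 10, a difference of 0.15. Chronic minus acute was -1.40 for CD82 (-1.76 to -1.07) and 1.01 for ATF4 (0.89 to 1.12).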

How the results depend on the processing

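The members gave 140 values under other settings; 136 stayed within the counting interval and none changed direction past it. With library totals in place of TMM, which moves the median of all genes by 0.13 for the day 10 comparison and 0.14 for the hypoxic days, NDRG1 was 5.67 and 2.95 higher and NDRG3 0.22 and 0.35. The share of calls that were upward was then 77.7% in place of 67.2% for day 10, 80.3% in place of 68.4% for the hypoxic days and 78.1% in place of 67.0% for chronic minus acute. Per transcript length, NDRG1 took 32.4% of the family in reoxygenated cells, 96.6% and 40.5% on day 10 at 1% and 20% O2, and 83.1% and 34.1% on day 1 at 1% and 20% O2. With a filter of 5 CPM, 109 genes were past the size rule upward and 22 downward on day 1, 1172 upward on day 10, 1124 upward between the hypoxic days, 862 downward in reoxygenated over 1% O2 cells, 174 upward and 48 downward in reoxygenated over 20% O2 day 10 cells, 183 upward and 53 downward for time at 20% O2, and 933 upward for chronic minus acute. With no filter, 454 were upward and 244 downward on day 1, 797 upward and 410 downward in reoxygenated over 20% O2 day 10 cells, and 313 downward for time at 20% O2. A prior count of 0.5 gave 209 downward on day 1, and library totals gave 574 downward between the hypoxic days. For the oxygen term (117 rose, 13 fell in edgeR), edgeR without a day term called 0 and 0, listed genes included, with 462 genes at an unadjusted p under 0.05; DESeq2 called 47 and 2, limma-voom 202 and 22, edgeR with library totals 25 and 2 (listed 1 and 0), and edgeR with no filter 237 and 44 (2 listed fell). With 1 library left out, and with it the day term, since 3 libraries cannot carry both terms and a residual, between 0 and 2028 genes rose and 0 and 2197 fell, and between 0 and 9 listed genes rose and 0 and 7 fell; both were 0 without either 20% O2 library, where 143 (without day 1) and 258 (without day 10) genes had an unadjusted p under 0.05. Beyond the day term, which sets 1% against 20% O2 within each day, no paired analysis was possible because the labels carry no replicate numbers. With 1 library per condition, culture-to-culture spread is unknown, and the counts of NDRG2 and NDRG4 (at most 74) leave intervals too wide to tell most of their levels apart.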
